A study of Mus musculus with 2 samples.

Results

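The genes described here encode structural and processing proteins of the granular and cornified layers of the epidermis: loricrin (Lor), involucrin (Ivl), filaggrin (Flg), filaggrin family member 2 (Flg2), hornerin (Hrnr), repetin (Rptn), caspase 14 (Casp14), cornifelin (Cnfn), cysteine-rich C-terminal 1 (Crct1) and corneodesmosin (Cdsn). They were found on the array by symbol, accession or probe description, with no threshold on a measured value. All 10 had at least 1 probe, 12 probes in all, among the 10456 genes or transcripts measured. Flg was found as LOC675741, whose array annotation reads similar to filaggrin, and Flg2 under its older name EG229574.

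RNA came from the skin of 25-day-old Pla2g2f-Tg/+ mice and of their littermate controls without the transgene, all on a C57BL/6 background, and 4 mice were pooled for each genotype. Both pools were hybridised together on 2 Agilent two-colour arrays, with Pla2g2f-transgenic RNA in Cy5 on array 1 and in Cy3 on array 2. Pla2g2f encodes a secreted phospholipase A2, and by its title the series concerns mice with alopecia and an epidermal hyperplasia that resembles psoriasis. The sources used here do not give the promoter that drives the transgene. Nothing in the labels states that each array had pools of its own, so both arrays count as 1 replicate, no p-value is given, and the difference between the arrays is technical spread. In whole skin RNA, fewer cells of a type and less RNA per cell cannot be told apart.

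Keratinocytes that leave the basal layer first make new keratins, then fill with keratohyalin granules, and finally die and become corneocytes. Profilaggrin is stored in those granules and is cut into filaggrin, which packs keratin filaments and is later degraded to amino acids that hold water in the cornified layer. Involucrin and loricrin are crosslinked under the plasma membrane into the cornified envelope, and loricrin is a major protein of that envelope. Most of these genes lie together in the epidermal differentiation complex on mouse chromosome 3.

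The filaggrin group is shown first through the sequences that carry it, because the results turn on whether neighbouring genes of 1 family were read separately. Below are the first 30 bases of the 60-base array probes of filaggrin, its neighbour Flg2, hornerin and repetin, all on the plus strand of chromosome 3 in mm8, the build of the array design.
Flg, first probe, chr3:93365175-93365234: agcaaaggcatggatctggttccaccgaaa
Flg, second probe, chr3:93378541-93378600: ggaggatatgaatccatatttacagcaaag
Flg2, chr3:93306122-93306181: ggttctgcctacttagatagcaatactccg
Hrnr, first probe, chr3:93418762-93418821: tagaaaagtttatccatagtacatacagct
Rptn, chr3:93484146-93484205: gcagtttgaagctaaagaagaaacctacat
Over their full length, the first Flg probe and the Flg2 probe shared no run longer than 9 bases on either strand, and 9 bases was also the longest run shared by any pair of the 12 probes. No member probe (0 of 12) shared a run of 20 bases with any other probe of the array. Probes were compared with probes and not with transcripts, so these runs cannot show whether a probe also bound a relative's RNA. That was not tested. Which exon or untranslated part each probe lies in is not annotated in the files.

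The transgenic pool had more filaggrin, caspase 14 and cornifelin RNA than the control pool, by at least 2-fold on each array. Caspase 14 and cornifelin did not pass with the arrays centred on spike-in RNAs, or with array 1 recomputed by normexp background correction and loess. Filaggrin passed under both. Flg2, the gene next to filaggrin, lay below the control on both arrays. Filaggrin stood 5.01-fold higher in the mean of the arrays by its brighter probe. The ratios of repetin also passed 2-fold, but its control channel was not well above background, and the bound on array 1 was at least 1.60-fold higher. Loricrin, corneodesmosin and Crct1 lay within 1.5-fold of the control, with mean ratios of 1.35, 1.34 and 1.23. Of the 10 genes, 4, with Rptn counted, were higher by the 2-fold rule and none (0) was lower. Over all measured genes, 3.72% were higher and 1.68% lower. Rptn entered through its transgenic channel alone, where only a gene higher in the transgenic pool could enter. Without Rptn, 9 genes were well above background in both channels and 3 were higher, beside 243 of 9191 genes passing that filter. Above 0 on each array were 9 of the 10, with Rptn counted, beside 35.3% of all genes. With the arrays centred on spike-in RNAs, 6 were above 0 on each array and 3 below. That centring also moved the median log2 ratio of all genes, from -0.0079 to -0.49. The share of all genes above 0 was not counted for it, so the 6 cannot be set against 35.3%.

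**Figure D1:**
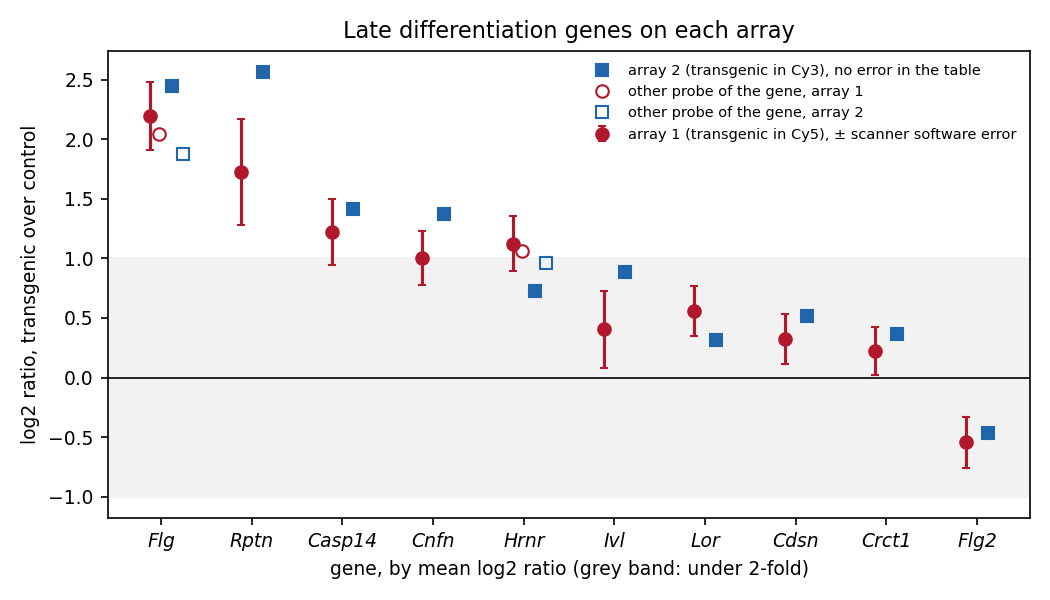
Log2 ratio of transgenic over control skin for the 10 genes on array 1 (circles, with the scanner software's error) and array 2 (squares), open symbols marking the other probe of Flg and Hrnr. Flg, Rptn (dim in the control channel), Casp14 and Cnfn lie above the grey band of less than 2-fold on both arrays, and Flg2 alone lies below 0 on both.

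The scale of the arrays bears on every small ratio. The 10 spike-in RNAs added to the samples had a median log2 ratio of 0.38 on array 1 and 0.58 on array 2, a mean shift of 0.48. With the arrays centred on them, the median of all genes was -0.49 in place of -0.0079, Lor became -0.043, Cdsn -0.061 and Crct1 -0.19, and only Flg and Rptn passed the 2-fold rule, with 1.52% of all genes past it as higher and 4.34% as lower. Differences between genes on the same array do not depend on this centring. Centring takes the spike-in median as no change, and the amounts added to each pool were not checked. The probe for Pla2g2f itself gave log2 ratios of 0.54 and 0.34, under 2-fold, and the sources used here do not say whether the transgene's transcript contains that probe.

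Filaggrin, the keratin-packing protein of the granules, had the highest mean ratio of the group by its brighter probe, at 2.32 on the log2 scale. With its probes averaged it had 2.14, against 2.15 for repetin. On array 1 its first probe had a processed signal of 12142 in the transgenic channel, against 2646 in the control channel. The log2 ratios were 2.20 (array 1) and 2.45 (array 2), so both lay far above the 2-fold line. The software's error on array 1 was 0.29 log2 units. The second filaggrin probe, 13366 bases downstream, had signals of 10864 in the transgenic and 2631 in the control channel, with log2 ratios of 2.05 and 1.88. The 2 probes therefore gave the same direction and both passed 2-fold on each array, at 5.01-fold and 3.89-fold in the mean. By the brighter probe, 46 of the 10456 measured genes, or 0.44%, had a higher mean ratio than filaggrin. One further array probe, described as partly similar to filaggrin, carries another accession and was dim in both channels, so it was not counted as filaggrin.

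Flg2, a filaggrin relative of the same granules, ran the other way. Its probe had a signal of 2106 in the transgenic channel, against 3072 in the control channel of array 1. The log2 ratios were -0.54 and -0.46, a mean ratio of 0.70, which is under 2-fold. The arrays differed by only 0.08 here, the smallest gap among the 10 genes, and 92.1% of all measured genes had a higher mean ratio. Centred on the spike-ins Flg2 had -0.92 and -1.04, past 2-fold on array 2 only. On array 1 the ratio of filaggrin lay 2.74 log2 units above that of Flg2 and on array 2 it lay 2.91 above, a 7.10-fold difference between the ratios of these neighbours in the mean. With the second filaggrin probe the mean difference was 2.47.

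Repetin, another S100 fused-type protein of the granular layer and cornified envelope, was dim. Its probe had a signal of 317 in the transgenic channel, well above background, against 96.0 in the control channel, which was not. The log2 ratios were 1.73 on array 1 and 2.57 on array 2, and their difference of 0.84 was the largest of the group. Repetin entered the measured genes through its transgenic channel alone, and since only a gene higher in the transgenic pool could enter that way, its call is a description of that channel. With the control placed at 198, the lowest control signal that was well above background, repetin was at least 1.60-fold higher on array 1. With array 1 recomputed from the raw spots by normexp background correction and loess, its ratio on array 1 was 0.37 and the call was lost.

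Hornerin, which shares the repeat structure of filaggrin, had a signal of 3437 in the transgenic channel, against 1578 in the control channel at its brighter probe. Its log2 ratios were 1.12 and 0.73, so it passed 2-fold on array 1 and missed it on array 2. The second hornerin probe had log2 ratios of 1.06 and 0.96, but its control signal of 154 was dim, and by that probe hornerin was at least 1.63-fold higher on array 1. In the order of the chromosome, Flg2, Flg, Hrnr, Rptn and Tchh follow one another, and their mean log2 ratios were -0.50, 2.32, 0.93, 2.15 and -2.79. Tchh, which encodes trichohyalin of the inner root sheath, is also an S100 fused-type gene. Its brighter probe had a signal of 6216 in the transgenic channel, against 43429 in the control channel. The other Tchh probe had a mean log2 ratio of -1.93. The ratios of Flg2 and Flg were more than 2-fold apart on each array by either filaggrin probe. Those of Flg and Hrnr were so by the first filaggrin probe only, the second lying 0.92 and 1.15 log2 units above Hrnr.

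**Figure D2:**
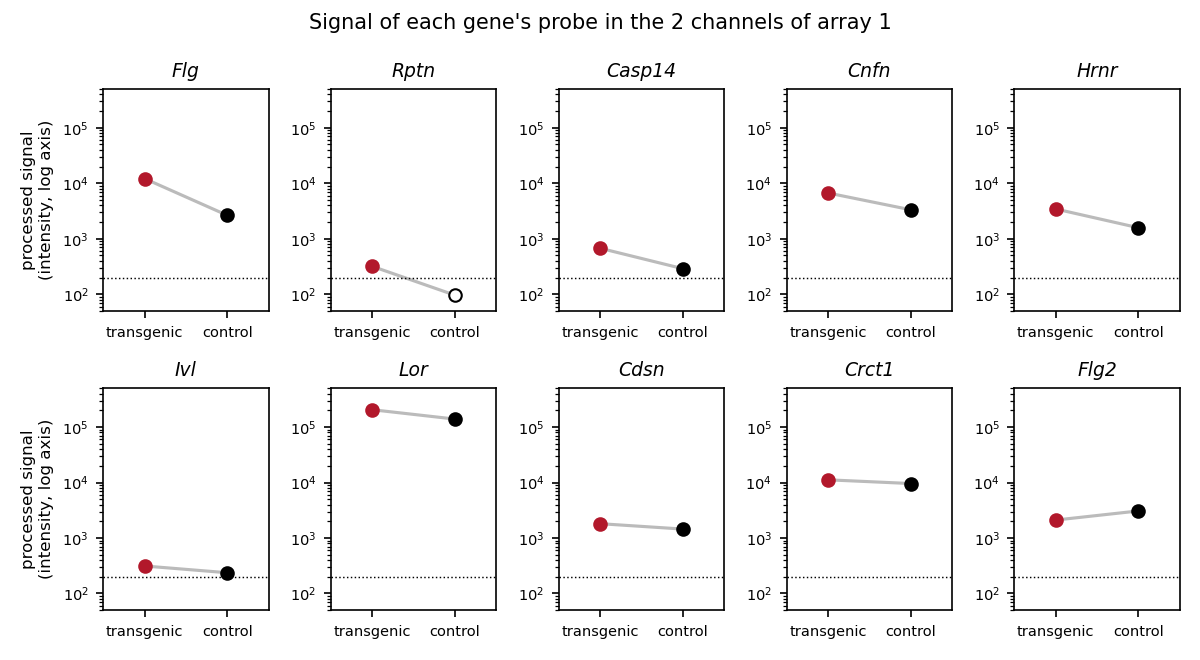
Processed signal of each gene's main probe in the transgenic (left) and control (right) channels of array 1, on log axes, with the lowest control signal well above background as a dotted line and an open circle for a channel not well above background. Only the control signal of Rptn (96.0) lies below the line, and Flg2 alone is lower in the transgenic channel. Panels show 1 probe each, whose brightness cannot be set against that of another probe.

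Loricrin, the major envelope protein, had signals of 204920 in the transgenic channel and 139053 in the control channel. Its log2 ratios of 0.56 and 0.31 were both above 0 and both under 2-fold. The raw spot brightness was 12240 in the transgenic and 7266 in the control channel, below the scanner's limit of 65502, and no member spot (0) was saturated on array 1. Relative to loricrin on the same array, the filaggrin ratio lay 1.64 log2 units higher on array 1 and 2.14 higher on array 2, or 3.70-fold in the mean. Loricrin and corneodesmosin could not be put in order, since loricrin lay 0.24 above on array 1 and 0.20 below on array 2.

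Involucrin, an early scaffold of the envelope, was weakly detected, with signals of 313 in the transgenic channel and 236 in the control channel. Its log2 ratios were 0.40 and 0.88, a gap of 0.48 between the arrays, and the ratio missed 2-fold on both. By normexp and loess the value on array 1 was 0.084. Cornifelin, a small cysteine-rich protein of the envelope, had signals of 6683 in the transgenic and 3330 in the control channel. Its log2 ratios were 1.01 and 1.37, so it passed the rule by a narrow margin on array 1. Centred on the spike-ins cornifelin had 0.63 and 0.79 and did not pass, and by normexp and loess array 1 gave 0.84, which did not pass either.

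Caspase 14 is a protease of cornifying keratinocytes that takes part in the breakdown of filaggrin. Its signals were 674 in the transgenic channel and 289 in the control channel, and both were well above background. The log2 ratios of 1.22 and 1.41 differed by 0.19, and both passed 2-fold. Centred on the spike-ins they were 0.84 and 0.83, and by normexp and loess array 1 gave 0.43, so the call was lost under either. Filaggrin lay 0.98 and 1.04 log2 units above caspase 14 on the 2 arrays.

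Corneodesmosin, the adhesive glycoprotein that holds corneocytes together, had signals of 1811 in the transgenic channel and 1448 in the control channel. The log2 ratios of Cdsn were 0.32 and 0.51. Crct1 had signals of 11181 in the transgenic and 9583 in the control channel, with log2 ratios of 0.22 and 0.37. For both genes the mean ratio was under 1.5-fold, and the sign of the mean turned when the arrays were centred on the spike-ins.

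Set against each other within an array, the genes kept most of their order. Rptn is left out of these counts, since its control channel was dim. Of the 36 pairs of the other 9 genes, 31 had the same order on both arrays, 11 were apart by at least 2-fold on each, and in 27 the mean difference exceeded the gap between the arrays. Among the 5 pairs without a common order were Ivl with Lor and Lor with Crct1. Pairs of all measured genes were not counted in this way, so the pair counts describe these 9 genes only. By its first probe filaggrin lay at least 2-fold above 7 of the 8 others on each array, the exception being Casp14. These 7 are among the 11 pairs, so that count depends on the filaggrin probe. By its second probe filaggrin did so for 4 of the 8, namely Lor, Flg2, Crct1 and Cdsn. The mean log2 ratios of the 10 genes spread from -0.50 to 2.32, with an SD of 0.86 between genes, while the median gap between the arrays was 0.25 for these genes and 0.23 for all genes. The scanner software's error on array 1 ran between 0.21 and 0.44 log2 units for the 10 main probes. Their ratio was higher on array 2 than on array 1 for 8 genes and lower for 2, Lor and Hrnr.

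**Figure D3:**
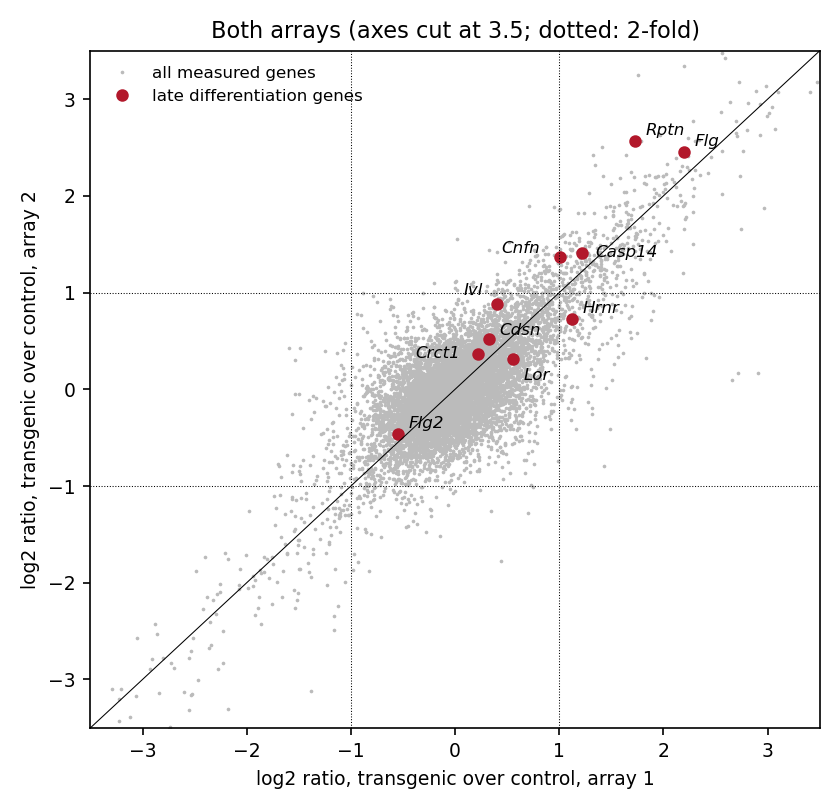
Log2 ratio of transgenic over control on array 1 (horizontal) and array 2 (vertical) for all measured genes (grey) and the 10 genes (red), both axes limited to 3.5 either way. Flg and Rptn lie at the upper right and Flg2 at the lower left of the red points, and the other 7 spread between them near the diagonal.

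Sequence upstream of these genes was examined because members of 1 chromosomal cluster differed in ratio. RefSeq promoter entries on GRCm38.p6 were held for 9 of the 10 genes, with 2 for Cdsn, and none was used for Crct1. The 150 bases before the annotated start are printed for the filaggrin neighbours and for loricrin and involucrin, 5′ to 3′ on the gene's strand, with TGANTCA in capitals. Its forms TGACTCA and TGAGTCA are the classic binding site of AP-1 factors.
Flg2, chr3:93197123-93197272, plus strand: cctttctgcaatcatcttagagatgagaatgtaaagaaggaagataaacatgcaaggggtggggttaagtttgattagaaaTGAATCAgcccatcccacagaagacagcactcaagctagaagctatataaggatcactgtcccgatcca
Flg, chr3:93273396-93273545, plus strand: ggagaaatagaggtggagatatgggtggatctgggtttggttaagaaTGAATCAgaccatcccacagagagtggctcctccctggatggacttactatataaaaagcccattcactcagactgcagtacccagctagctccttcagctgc
Hrnr, chr3:93319599-93319748, plus strand: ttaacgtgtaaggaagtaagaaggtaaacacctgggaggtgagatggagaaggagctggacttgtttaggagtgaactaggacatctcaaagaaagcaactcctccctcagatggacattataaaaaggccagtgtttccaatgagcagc
Rptn, chr3:93393549-93393698, plus strand: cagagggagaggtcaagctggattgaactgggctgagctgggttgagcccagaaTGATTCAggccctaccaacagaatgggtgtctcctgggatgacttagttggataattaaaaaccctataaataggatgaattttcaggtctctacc
Lor, chr3:92083143-92083292, minus strand: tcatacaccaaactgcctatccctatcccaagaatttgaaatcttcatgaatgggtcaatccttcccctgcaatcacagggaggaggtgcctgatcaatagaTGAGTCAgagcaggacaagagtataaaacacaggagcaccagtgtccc
Ivl, chr3:92573736-92573885, minus strand: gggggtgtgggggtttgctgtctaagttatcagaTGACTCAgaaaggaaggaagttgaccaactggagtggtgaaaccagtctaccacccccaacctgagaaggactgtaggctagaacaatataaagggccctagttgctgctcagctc
TGANTCA, which reads the same way on both strands, was present in 5 of the 9 genes (Lor, Ivl, Flg, Flg2 and Rptn) and in 4.24% of 32851 promoter entries of the same length. Ivl (TGACTCA) and Lor (TGAGTCA) held the AP-1 forms, which 2.84% of the entries held. Flg and Flg2 had TGAATCA and Rptn TGATTCA, which is the same site read on the other strand. TGANTCA began 103 bases before the start in Flg, 69 in Flg2, 96 in Rptn, 48 in Lor and 116 in Ivl. Just downstream of it, Flg2 and Flg shared a run of 12 bases, ccatcccacaga, the longest shared by any pair of the filaggrin neighbours, which was held by only 2 of the 32851 entries, those of these genes. It was chosen after the sequences were seen. Filaggrin and Flg2, which carried the same 7 letters on the gene's strand, had mean log2 ratios of 2.32 and -0.50. Rptn, with the same site on the other strand and a dim control channel, had 2.15. Of the 4 genes higher by the rule, Flg and Rptn held TGANTCA in this window and Casp14 and Cnfn did not. Whether these sequences have a part in the ratios was not tested.

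Other genes of the same program were compared by lists, whose choice was made with earlier results of these data known. In a list headed granular layer secreted and calcium-binding proteins, all 10 genes were measured. By the rule 2 were higher and none (0) was lower, beside 3.72% and 1.68% of all genes. Their median log2 ratio was 0.38, beside -0.0079 for all genes, and by spike-in centring the sign turned, at -0.095, beside -0.49 for all genes. Cst6, an inhibitor of cysteine proteases in the cornified layer, rose to 27914 in the transgenic channel, against 7304 in the control channel, with log2 ratios of 1.93 and 1.89. Calm4, a calmodulin-like protein of the epidermis, had log2 ratios of 1.91 and 1.66. Krtdap, a secreted keratinocyte protein, had 0.91 and 0.49 and did not pass. Calm5 had -1.37 and -0.69 and did not pass, and on array 1, with its transgenic channel dim, the bound was at least 1.97-fold lower. Centred on the spike-ins Calm5 passed as lower, with a mean of -1.51. By the arrays' own scaling the other 6 did not pass, with mean log2 ratios between 0.18 for Kprp and 0.64 for Sbsn. The second Sbsn probe gave -0.034.

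A list headed filaggrin processing and corneodesmosome proteolysis held 20 genes, of which 18 were measured. Of these, 3 were higher and 1 was lower, again beside 3.72% and 1.68% of all genes. Their median was 0.38, and -0.099 when centred on the spike-ins. Asprv1, the aspartic protease that trims profilaggrin, had signals of 11659 in the transgenic channel and 5269 in the control channel, with log2 ratios of 1.15 and 1.28. The kallikrein-related proteases Klk6 and Klk8 had mean log2 ratios of 2.20 and 1.03, and Klk6, which entered through its transgenic channel alone, was by its bound on array 1 at least 3.64-fold higher. Centred on the spike-ins, Asprv1 had a mean of 0.73 and Klk8 of 0.55, and neither passed. By normexp and loess neither Klk6 at 1.40 nor Klk8 at 0.74 passed. Ctsd, a lysosomal protease, had 0.90 and 1.27 and missed the rule on array 1. Padi3, a peptidylarginine deiminase of the hair follicle, was the 1 lower gene, with log2 ratios of -2.91 and -2.79. St14, which encodes the membrane protease matriptase, had -1.23 and -0.86 and missed the rule on array 2, though it passed as lower when centred on the spike-ins.

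Suprabasal keratins, plakins and desmosome partners had a median of -0.058 over 9 measured genes of 12, with 1 higher and none (0) lower, beside 3.72% and 1.68% of all genes. Krt1, a keratin of the spinous layer, had log2 ratios of 2.23 and 2.30, and its partner Krt10 had 0.99 and 0.98, just under 2-fold on each array. Ppl, the envelope plakin periplakin, had a mean of -0.30, and Dsg1a, a desmosomal cadherin, -0.73. Both lay below 0 on each array and did not pass. Regulators of terminal differentiation had a median of -0.44 over 18 measured genes of 20, and none (0) passed the rule in either direction, while 13 lay below 0 on each array, beside 35.7% of all genes. By their brightest probes the lowest were Notch1 at -0.86, Ovol1 at -0.85 and Zfp750 at -0.79, a receptor and 2 transcription factors of keratinocyte differentiation. The other Notch1 probe gave -0.64. Centred on the spike-ins, Notch1, Zfp750 and Hopx passed as lower. Cebpa, also a transcription factor, had 0.32 and 1.44, so the arrays differed by more than 1 log2 unit.

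**Figure D4:**
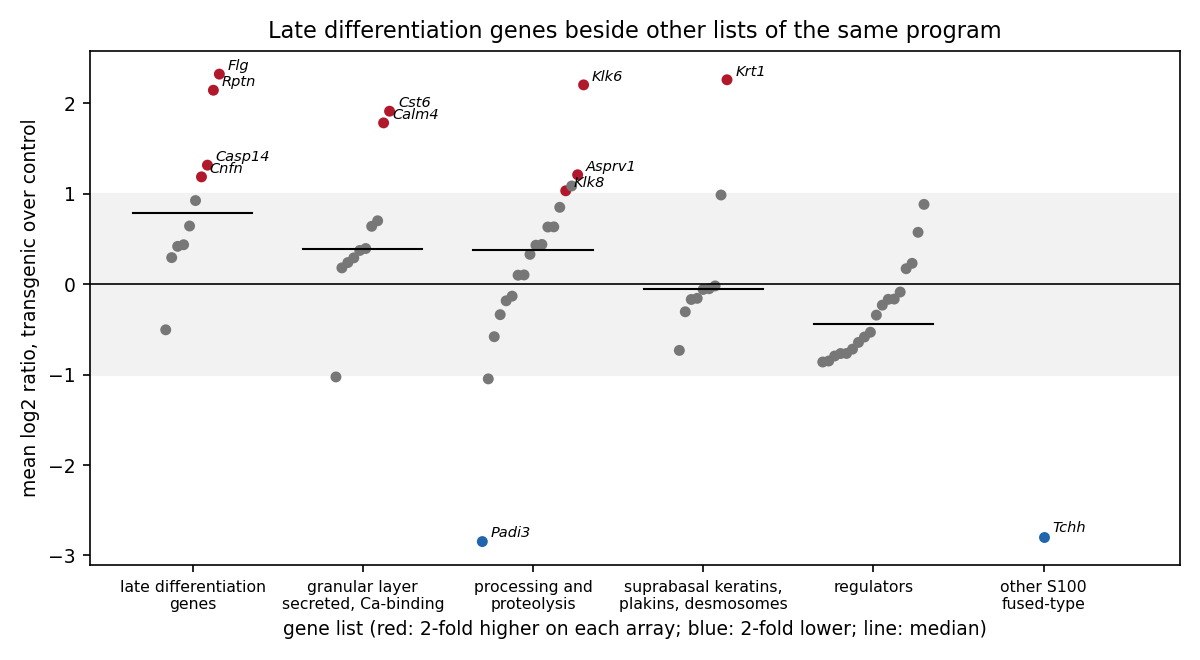
Mean log2 ratio of transgenic over control for each measured gene of the group described here and of the 5 other lists, with the median as a line and genes past 2-fold on each array in red (higher) or blue (lower). Flg, Rptn, Cst6, Calm4, Klk6 and Krt1 lie highest in their lists, most regulators lie below 0, and Padi3 and Tchh lie below -2.

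Markers of several other cell types in the skin differed between the pools, and their part in the ratios above was not tested. Beside the counts that follow, 3.72% of all genes were higher and 1.68% lower. All 5 basal keratinocyte markers were well above background in both channels, and 1, Krt14, was higher. Their median log2 ratio was 0.29, beside -0.0079 for all genes. Centred on the spike-ins it was -0.19, beside -0.49 for all genes. Summed signals, here and below from array 1, were 198220 in the transgenic and 130755 in the control channel. Krt5 alone gave 123285 and 84000 of these. All 5 measured hair shaft markers of 6 and all 6 measured inner root sheath markers of 8 were lower. Of these, Krt86, Krt31, Krt34 and Krt26 entered through the control channel alone, where only a lower gene could enter, and by their bounds on array 1 they were at least 16.5-fold, 11.3-fold, 15.6-fold and 6.51-fold lower. The inner root sheath markers, to which Tchh belongs, had summed signals of 57357 in the transgenic and 285196 in the control channel. All 4 measured melanocyte markers of 5 were lower, with a median of -1.42. All 5 measured sebocyte markers of 8 and all 4 measured adipocyte markers of 5 were higher, with medians of 2.25 and 1.49. Also higher were 2 of 3 macrophage, 2 of 5 skeletal muscle and 1 of 3 endothelial markers measured. Of 5 fibroblast markers none (0) passed the rule, with summed signals of 426977 in the transgenic and 410394 in the control channel. Centred on the spike-ins, Krt14, the adipocyte markers other than Cfd, and all 5 of the macrophage, muscle and endothelial calls were no longer past 2-fold. By normexp and loess, of the melanocyte markers only Mlana passed, and Plin1, Vwf and Adgre1 did not.

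**Figure D5:**
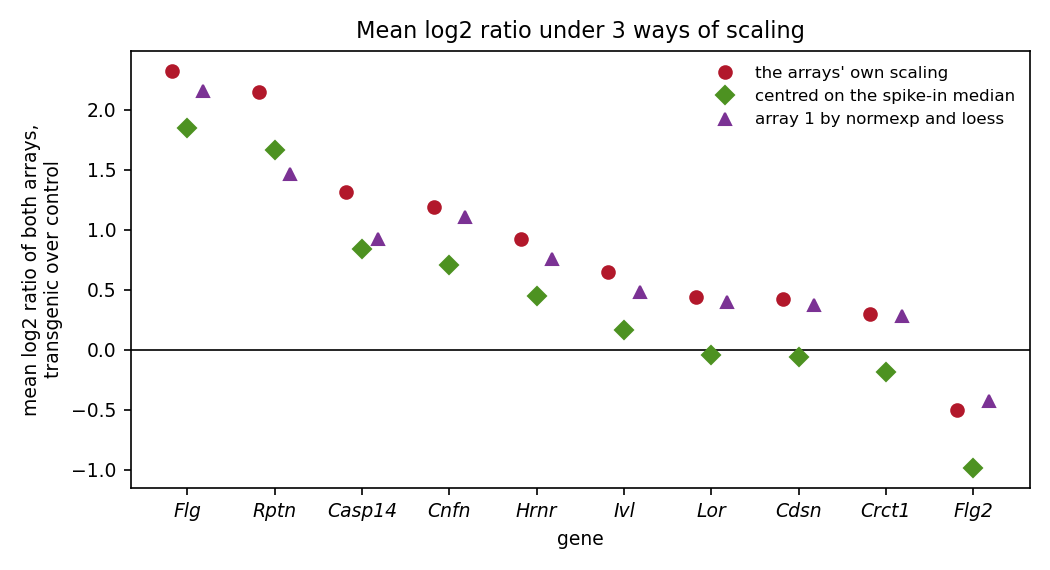
Mean log2 ratio of transgenic over control for the 10 genes under the arrays' own scaling (circles), centred on the spike-in median (diamonds) and with array 1 recomputed by normexp and loess (triangles). Each gene is shown by its brightest probe. Flg stays above 1.8 in all 3, Lor, Cdsn and Crct1 cross 0 when centred on the spike-ins, and Flg2 stays below 0. The second Flg probe, not shown, had 1.48 when centred on the spike-ins.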

How the data were processed

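Agilent Feature Extraction 9.5.1.1 made the deposited files, per the file headers: it subtracted background, removed spatial trends, normalised the dyes linearly and by LOWESS, and gave dim spots surrogate values, which compress ratios. The intensity values of array 1 were deposited for each channel, per the file headers, with a log10 ratio of Cy5 over Cy3. The value table the authors deposited gives a log10 ratio for each array. Array 1 matched its scanner ratios at 43790 features within 1e-09, and array 2 was taken as Cy5 over Cy3 because its correlation with array 1 over all non-control features was 0.579 after turning its sign. Channel signals of array 2 were not used here. The scanner software's deposited p-value for each spot was not used, since per the file headers it models 1 array only.

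All ratios were put on the log2 scale as transgenic over control, which turned the sign of array 2. Control spots and 29 outlier spots were left out. Probes entered if either channel of array 1 was well above background (13341 of 41167), and the brightest stood for a gene. A gene was called at 2-fold or more the same way on each array. Repeat spots of 16 probes printed at least 10 times, bright in both channels, had a median SD of 0.090 (array 1) and 0.082 (array 2) in log2 ratio. Names came from RefSeq tables of GRCm38.p6. For dim channels, bounds use the lowest processed signal well above background (190 transgenic, 198 control), rest on array 1 alone and are open to dye bias. Alternatives used limma 3.58.1 (normexp offset 50, loess), spike-in or median centring, other probe rules and single arrays. The members and lists were chosen with earlier results of these data known. Genes named are the 10 members and, from each list, every called gene and up to 4 with the largest absolute means; others named were chosen after their values were seen. The number of arrays limits the precision.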

Additional observations from a re-analysis of the deposited data

How the results depend on the processing

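Among the 10 genes, 4 were called higher as reported. The count was 2 (Flg and Rptn) centred on the spike-ins and 1 (Flg) with array 1 by normexp and loess. Without 1 array it ranged from 4 to 5. Calls over all 10456 genes moved as well. As reported 389 were higher, with 159 centred on the spike-ins, 107 by normexp and loess, and 520 and 568 on single arrays. None (0) of the 10 genes was lower under any of the alternatives run. The median log2 ratio of the 10 genes, 0.78, was 0.31 centred on the spike-ins, 0.62 by normexp and loess, 0.64 with both channels well above background (9 genes, without Rptn), 0.81 with probes averaged, 0.83 with the lowest-signal probe (chosen after seeing the data), and between 0.78 and 0.81 on single arrays. The Lor ratio minus the Flg ratio, -1.89 log2 units, was -1.52 with the lowest-signal probe and ranged from -2.14 to -1.64 on single arrays. Of all genes, 565 were called, against 163 by normexp and loess, 329 with both channels well above background and 1261 at 1.5-fold. In the sign of the mean, only Lor, Cdsn and Crct1 turned, each only when centred on the spike-ins. Both genotypes share each array, so every ratio is a paired contrast, but no paired test was possible because no replicate of a genotype was counted. Signal over background limits Rptn, whose control channel was dim, and channel signals of array 2 were not examined.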
